A study of Drosophila melanogaster with 9 samples.

Results

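The transcriptomes of *Drosophila* S2 cells treated against the heterochromatin reader HP1a were compared with those of cells treated against the methyltransferase Su(var)3-9, gene by gene, over protein-coding genes. Of the 9 total RNA libraries in the series, 6 entered this comparison, 3 for each knockdown label, and the 3 GFP control libraries are given beside them for reference. All cells came from the same embryonic line, S2, grown in culture, and were collected 3 days after transfection with 1 µg of double-stranded RNA (dsRNA) against HP1a, against Su(var)3-9 or, in the control, against GFP. The study used S2 cells throughout, so every group has a single cell line in common. The samples are numbered as replicates 1 to 3, and since the labels do not say whether these were separate cultures, p-values here measure only the spread between these samples.

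HP1a and Su(var)3-9 act at the same place in the genome. Su(var)3-9 is a methyltransferase that places methyl groups on lysine 9 of histone H3, the mark of pericentromeric heterochromatin. HP1a reads that mark through its chromodomain, binds Su(var)3-9, and so helps the mark to spread and to persist. Other *Drosophila* enzymes, egg (SETDB1) and G9a, methylate the same residue, and HP1a also binds to some active genes. Comparing the reader's knockdown with the methyltransferase's asks which transcripts differ between them. A transcript changed equally by both would show no difference.

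The values analysed were coding TPM: the deposited TPM, an abundance corrected for transcript length and scaled to a fixed total, rescaled in each library so that the genes with a CG identifier summed to 1000000. The table held 15168 genes, of which 14088 had such an identifier, and 7964 of these had a mean of at least 1 coding TPM over the 6 libraries and were tested. A few CG identifiers are annotated as noncoding in the gene table used for names. Differences are on the log2(coding TPM + 1) scale, coded HP1a RNAi minus Su(var)3-9 RNAi, and come from limma with Benjamini-Hochberg adjustment over all 7964 genes. This scale understates the change of genes with low values. Genes with CG identifiers held 10.2% to 11.1% of the deposited TPM in the libraries labelled HP1a RNAi, against 9.70% to 14.2% in those labelled Su(var)3-9 RNAi, the highest being replicate 3. That library stood apart. Across tested genes its log2 values had a Pearson correlation of 0.957 to 0.965 with the other 5 libraries, whereas the other 10 pairs gave 0.968 to 0.981. TPM retain no sequencing depth, so the depth of each library is unknown from these values and no counting interval is given. In bulk RNA, fewer cells of a kind and less RNA per cell cannot be told apart.

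S2 cells are known to resemble macrophages, and the libraries carried that identity. Of 10 defining hemocyte markers 9 had a mean of at least 1 coding TPM, NimC1 being at 0 to 0.193 under the HP1a RNAi label and 0.190 to 1.48 under the Su(var)3-9 RNAi label. The 10 had a summed level of 1167 to 1249 coding TPM in the libraries labelled HP1a RNAi, against 1409 to 1630 in those labelled Su(var)3-9 RNAi, most of it from the matrix glycoprotein gene SPARC. The defining muscle markers (3 of 3) and fat body markers (4 of 4) and the glial marker repo were below 1 coding TPM in all 6 libraries. Some markers of other cell types were nonetheless measured, among them the lamellocyte gene PPO3 at 15.6 to 27.7 coding TPM, the crystal cell gene PPO2 at 1.03 to 2.45, the neuronal gene elav at 1.71 to 5.48 and the germline gene bam at 3.15 to 10.1. Other markers of these types were below 1 coding TPM in all 6 libraries, except the neuronal gene nSyb. It was at 0 under the HP1a RNAi label and at 0.516 to 1.04 under the Su(var)3-9 RNAi label. Those below 1 in all 6 were 1 of 2 lamellocyte, 2 of 3 crystal cell, 2 of 4 neuronal and 1 of the 2 germline markers found. From the wider lists, 4 of 12 muscle genes, including Tm1 and Act87E, and 2 of 10 fat body genes, apolpp and Lsp1gamma, had means of at least 1 coding TPM. So did 8 of 10 germline and ovary follicle genes, among them aub and osk.

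The targeted genes check the labels. Each of them was more abundant, rather than less, under its own knockdown label. The HP1a gene (CG8409) stood at 3789, 2796 and 2849 coding TPM in the libraries labelled HP1a RNAi, against 498, 534 and 510.3 in those labelled Su(var)3-9 RNAi. The control libraries had 596, 495 and 526. The 3 libraries labelled HP1a RNAi were therefore well above all 6 others, which overlapped. The log2 difference was 2.60 (SE 0.12, limma adjusted p = 6.45e-05), and it passed the threshold in 18 of 18 alternative analyses, with adjusted p between 3.02e-07 and 0.00468.

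CG6476, the identifier of Su(var)3-9, showed the mirror image. It had 252, 261 and 263 coding TPM under the HP1a RNAi label, 3923, 2483 and 3251 under the Su(var)3-9 RNAi label, and 240.3, 219 and 240.2 in the control. Only the libraries carrying its own label were high. The log2 difference was -3.61 (SE 0.15, limma adjusted p = 5.90e-05), again past the threshold in 18 of 18 alternatives, with adjusted p between 1.50e-09 and 0.00468. The same identifier is shared with eIF2gamma, which encodes a subunit of a translation initiation factor, so the gene-level value adds transcripts of both. Because each target was high where its knockdown was labelled, the groups are called by their labels, and every direction given here compares libraries by label and says nothing of protein loss, which these files do not measure.

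**Figure D1:**
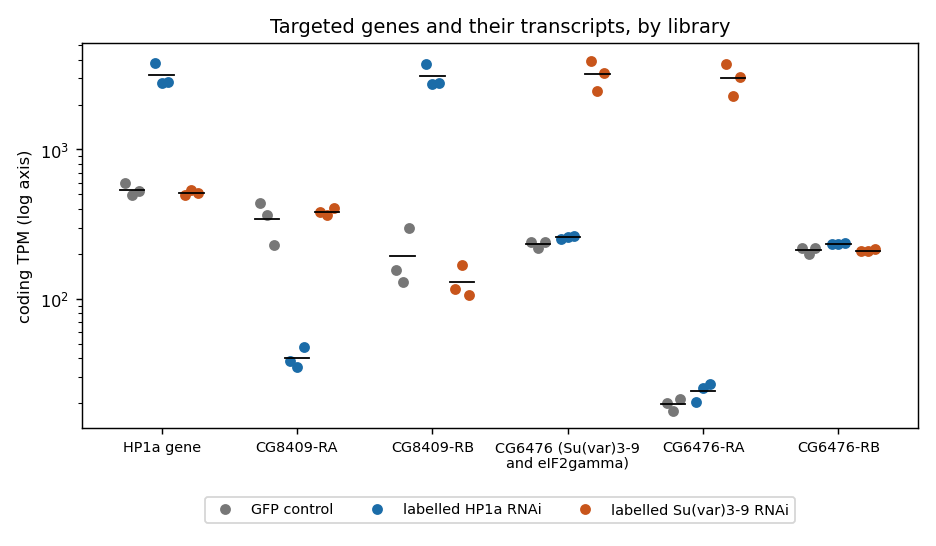
Coding TPM (log axis) of the targeted genes and of their transcripts in each of the 9 libraries; dots are libraries and black bars are means of 3. CG8409-RB and CG6476-RA carry the high values of the libraries labelled with their own target, while CG8409-RA is low in the 3 libraries labelled HP1a RNAi.

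The transcript table divided these differences among isoforms. Of 11099 transcripts of CG genes tested, 4 passed the threshold (0.036%), and 3 of them belonged to the targets. CG8409-RB had 3751, 2762 and 2801 coding TPM in the libraries labelled HP1a RNAi against 116, 169 and 107 in those labelled Su(var)3-9 RNAi, a log2 difference of 4.58 (SE 0.20, limma adjusted p = 2.74e-04). The other transcript of the HP1a gene, CG8409-RA, went the opposite way. It had 38.3, 34.8 and 47.6 coding TPM in the libraries labelled HP1a RNAi against 383, 365 and 404 in those labelled Su(var)3-9 RNAi, with 439, 365 and 229.9 in the control. Its log2 difference was -3.23 (SE 0.12, limma adjusted p = 1.73e-04), so that of the HP1a transcripts one was lower and one higher in the libraries that carry the HP1a label.

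For CG6476 the difference lay in one transcript. CG6476-RA had 20.3, 25.4 and 26.9 coding TPM in the libraries labelled HP1a RNAi against 3716, 2275 and 3037 in those labelled Su(var)3-9 RNAi, while the control had 20.1, 17.7 and 21.5. The log2 difference was -6.88 (SE 0.19, limma adjusted p = 3.7e-05). The second transcript, CG6476-RB, made up most of the identifier's level outside the libraries labelled Su(var)3-9 RNAi, with 232, 234 and 237 coding TPM against 208, 208 and 214, and its difference of 0.16 did not pass (limma adjusted p = 0.740). How RSEM shared reads between overlapping transcripts was not tested.

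Beyond the targets, few coding genes separated the labels. In all 6 of 7964 genes passed the threshold (0.0753%), 4 higher (0.0502%) and 2 lower (0.0251%) in the libraries labelled HP1a RNAi, and the targets were 2 of them. The remaining 4 were l(3)neo43, ppk29 and CG13563, which were higher, and CG11042, which was lower. Of these only l(3)neo43 was also called by transcript, with a limma adjusted p of 0.0486. CG13563-RB and CG11042-RA, with limma adjusted p of 0.210 and 0.202, did not pass, and no transcript of ppk29 did. At an unadjusted p under 0.05 there were 589 genes (7.4%), 350 higher (4.39%) and 239 lower (3.0%). The count of calls varied between 2 and 32 over the alternatives, and the unadjusted count rose to 1226 without Su(var)3-9 RNAi replicate 3 and fell to 332 without HP1a RNAi replicate 2 and 380 without HP1a RNAi replicate 1. It was 1478 with array weights, which weight libraries by their spread, and 105 of 6228 genes with TPM as deposited.

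ppk29, which encodes a channel subunit of the degenerin/epithelial sodium channel family, had the highest level of the 4. It had 17.2, 23.6 and 19 coding TPM under the HP1a RNAi label, 4.02, 2.66 and 4.92 under the Su(var)3-9 RNAi label, and 13, 15.5 and 11.9 in the control. The lowest of the first group was over the highest control and the highest of the second was under the lowest control, so the knockdown labels lay on opposite sides of GFP. The log2 difference was 2.12 (SE 0.24, limma adjusted p = 0.0366). It passed in 10 of 18 alternatives, with adjusted p between 0.00186 and 0.303, and leaving out any one library other than Su(var)3-9 RNAi replicate 3 ended the call (adjusted p between 0.0891 and 0.251).

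CG13563, a gene of no stated function in the tables used, followed ppk29. It had 11.5, 9.41 and 11.3 coding TPM in the libraries labelled HP1a RNAi against 0.722, 1.52 and 2.04 in those labelled Su(var)3-9 RNAi. The control had 7.36, 9.28 and 12, so that the libraries labelled HP1a RNAi lay within the control range and those labelled Su(var)3-9 RNAi lay below it. The log2 difference was 2.31 (SE 0.28, limma adjusted p = 0.0461), past the threshold in 7 of 16 alternatives (adjusted p between 0.00463 and 0.303). The call was likewise lost without any one library other than Su(var)3-9 RNAi replicate 3 (adjusted p between 0.0818 and 0.271). The annotation used places CG13563 and ppk29 over each other, and ppk29 also overlaps sei, a potassium channel gene whose difference was 0.55 (unadjusted p = 0.0161). Reads of these genes may not be separable, and ppk29 and CG13563 are not independent findings.

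The other called genes were short and listed at 0 throughout one group. l(3)neo43, of 231 bases, had 9.63, 15.4 and 18.1 coding TPM in the libraries labelled HP1a RNAi, with 9.71, 25.3 and 16.5 in the control, and was listed at 0 in the 3 libraries labelled Su(var)3-9 RNAi. No fold is given against a group listed at 0. The limma adjusted p was 0.00308, and 14 of 15 alternatives kept the call, the exception being without HP1a RNAi replicate 3 (adjusted p = 0.0568). The annotation places l(3)neo43 over MRG15 and Tm1, whose reads may not be separable from its own.

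CG11042, of 453 bases, was listed at 0 in the 3 libraries labelled HP1a RNAi and had 4.54, 10.8 and 9.20 coding TPM in those labelled Su(var)3-9 RNAi. The control libraries disagreed widely, with 0, 19.9 and 1198 coding TPM. The limma adjusted p was 0.0366, and 6 of 15 alternatives kept the call, with adjusted p between 0.00238 and 0.917. Among single libraries, leaving out any HP1a RNAi library, Su(var)3-9 RNAi replicate 2 or Su(var)3-9 RNAi replicate 3 ended it (adjusted p between 0.0744 and 0.223). Of the 273 tested genes under 500 bases, 34, 42 and 44 were listed at 0 under the HP1a RNAi label, 54, 55 and 59 under the Su(var)3-9 RNAi label, and 57, 43 and 39 in the control. Of all CG identifiers, 9353, 9515 and 9288 were above 0 under the HP1a RNAi label. The libraries labelled Su(var)3-9 RNAi had 9197, 9272 and 8891 above 0, and the control had 9515, 9617 and 9653. Neither set of numbers overlapped between the knockdown labels, and their part in the calls of l(3)neo43 and CG11042 was not tested.

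**Figure D2:**
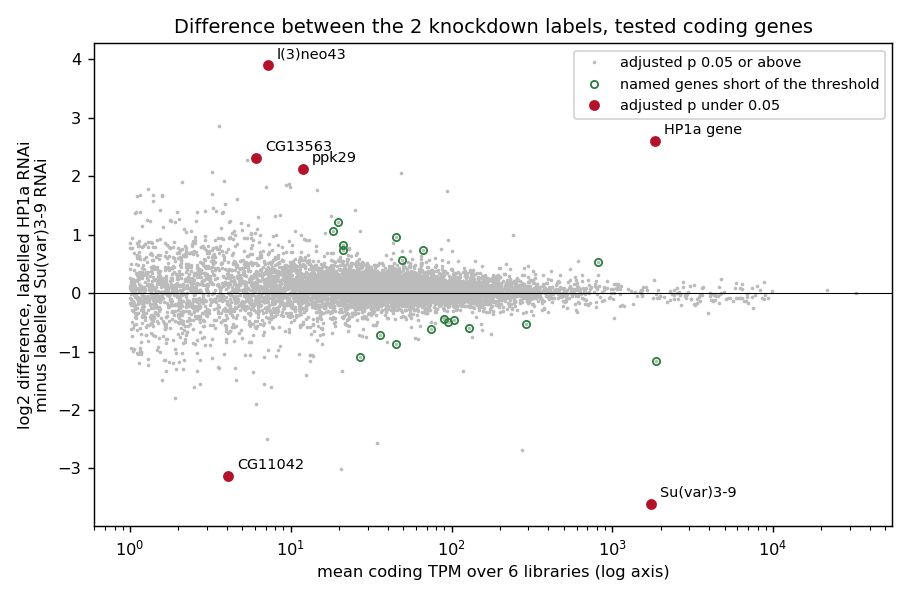
Log2 difference, libraries labelled HP1a RNAi minus libraries labelled Su(var)3-9 RNAi, against mean coding TPM (log axis) for 7964 coding genes. Filled points are the 6 genes past the threshold, and open circles are named genes that did not pass.

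The spread between replicates sets how small a difference could be bounded. The median width of the 95% confidence interval on either side of a gene's difference was 0.375 log2 units, or 0.317 for the 6111 genes with a mean of at least 10 coding TPM. In 7345 genes (92.2%) the difference was smaller than 0.5 in size, and in 6553 (82.3%) the whole interval lay between -1 and 1. The limits were wider at low levels. The 1853 genes with means of 1 to 10 coding TPM had a median interval of 0.780 on either side, while the 1255 genes at 100 to 1000 coding TPM had 0.214.

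Several genes stopped just short of the threshold at the same limma adjusted p, 0.0504, and are given as values. aub encodes Aubergine, an Argonaute protein of the Piwi clade that acts with piRNAs to silence transposons in the germline. It had 89.3, 78.0 and 83.2 coding TPM under the HP1a RNAi label, 45.8, 50.3 and 52.7 under the Su(var)3-9 RNAi label, and 38.9, 44.8 and 32.5 in the control. The libraries labelled HP1a RNAi stood above all the others without overlap, by 0.74 log2 units (SE 0.10), and 5 of 18 alternatives called the gene. CG3568 had 27.7, 27.0 and 29.1 coding TPM against 9.38, 12.4 and 12.9, with 18, 13 and 20.7 in the control. Here the control lay between the labels, and the difference was 1.21, called in 5 of 18 alternatives.

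On the lower side at the same adjusted p were 4 genes. Gel encodes gelsolin, which severs and caps actin filaments. It had 242, 222 and 244 coding TPM under the HP1a RNAi label, 352, 332 and 343 under the Su(var)3-9 RNAi label, and 316, 299.9 and 327 in the control. The difference was -0.53 (SE 0.07), with the control between the labels and no overlap among the 3 groups. Spn27A, a serpin known to restrain Toll signalling and melanization, had 35.2, 27.5 and 32.6 coding TPM against 58.8, 58.3 and 59.8, with 67.4, 69.5 and 83.5 in the control, a difference of -0.88. The libraries labelled HP1a RNAi were the lowest and the control was the highest.

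The DDB1 gene pic, an adaptor of a ubiquitin ligase that acts in DNA damage repair, had 107, 102 and 98.2 coding TPM in the libraries labelled HP1a RNAi against 148, 162 and 155 in those labelled Su(var)3-9 RNAi. The latter overlapped the control (147, 159.9 and 157), and the difference between labels was -0.59. AOX3, an aldehyde oxidase, had 59.5, 57.2 and 58.6 coding TPM against 88.4, 93.1 and 88.5, and 97.3, 100.05 and 126 in the control, a difference of -0.61. In pic and AOX3 the libraries labelled HP1a RNAi were thus below every other library. Spn27A and pic were each called in 6 of 18 alternatives, and Gel and AOX3 in 5.

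The next genes in order of p had various known roles. fat-spondin, a secreted matrix protein gene, had 18.5, 16.1 and 15.4 coding TPM in the libraries labelled HP1a RNAi against 32.6, 34.4 and 44.0 in those labelled Su(var)3-9 RNAi, with the control between them at 25.1, 25.7 and 27.8 (difference -1.10, limma adjusted p = 0.0644). bgcn, which acts with bam to repress translation in germline differentiation, had 26.2, 26.2 and 22.3 coding TPM against 10.1, 13.5 and 10.9, and 15.3, 19.1 and 13.5 in the control (difference 1.06, limma adjusted p = 0.0950). Neither gene had overlapping groups between the labels. Nplp2, a neuropeptide-like precursor gene, was abundant, with 938, 1192 and 1312 coding TPM against 2909, 1970.0 and 2828, and 2377, 1871 and 1792 in the control (difference -1.15, limma adjusted p = 0.0854).

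In a further set, the libraries labelled HP1a RNAi stayed near the control and those labelled Su(var)3-9 RNAi were the lower. Sumo, the gene of the small ubiquitin-like modifier, had 890.5, 985 and 1013 coding TPM under the HP1a RNAi label, 625, 656 and 724 under the Su(var)3-9 RNAi label, and 1206, 975.3 and 884 in the control (difference 0.53, limma adjusted p = 0.0954). Esyt2, an extended synaptotagmin that tethers the endoplasmic reticulum to the plasma membrane, had 26.6, 27.1 and 25.9 coding TPM against 14.3, 14.8 and 17.7, and 24.1, 28.5 and 29.6 in the control (difference 0.73). scaf, a serine protease homologue of the embryonic epidermis, behaved alike in order, with 29.7, 27.7 and 24.6 against 13.8, 15.8 and 15.6 coding TPM, and 26.2, 27.4 and 29.8 in the control (difference 0.81). None of these genes passed the threshold in the 6-library comparison, and each was called in 1 of 18 alternatives, the one with array weights.

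The opposite arrangement, in which the libraries labelled HP1a RNAi were those that differed from the control, was seen in CG8046 and CG18605. CG18605 had 64.9, 63.2 and 51.2 coding TPM under the HP1a RNAi label, 32.6, 22.9 and 36.3 under the Su(var)3-9 RNAi label, and 21.6, 25.7 and 34.8 in the control (difference 0.96). CG8046 had 55.5, 61.8 and 59.5 coding TPM against 42.4, 37.4 and 38.6, and 32.1, 39.1 and 27.7 in the control (difference 0.57). ALiX, whose product works with the membrane-remodelling ESCRT machinery, and the cytochrome P450 gene Cyp6a17 lay below the control range in the libraries labelled HP1a RNAi, with differences from the libraries labelled Su(var)3-9 RNAi of -0.47 and -0.45. Last by the naming rule were CG34150 and krimp, which did not share this arrangement. CG34150 had 27.7, 25.7 and 27.5 against 43.6, 50.5 and 40.9 coding TPM, and 18.5, 28.5 and 34.9 in the control (difference -0.71). There the libraries labelled Su(var)3-9 RNAi lay above the control range. The Tudor-domain piRNA factor krimp had 77.8, 80.6 and 77.4 against 104, 110.3 and 122, and 105, 104 and 79.4 in the control. Its difference was -0.50, and both labels overlapped the control range.

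stj was chosen after its values were seen. It encodes straightjacket, an alpha-2-delta subunit of voltage-gated calcium channels, and its mean fell below the minimum of 10 coding TPM used for naming. It had 15.5, 16.8 and 12.7 coding TPM under the HP1a RNAi label, 1.96, 4.27 and 4.49 under the Su(var)3-9 RNAi label, and 2.87, 4.59 and 3.30 in the control. The former stood clear of the other 6 libraries. The difference of 1.85 (SE 0.28) had a limma adjusted p of 0.0916 and was called with 9 libraries in one fit, with quantile normalization and with array weights.

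**Figure D3:**
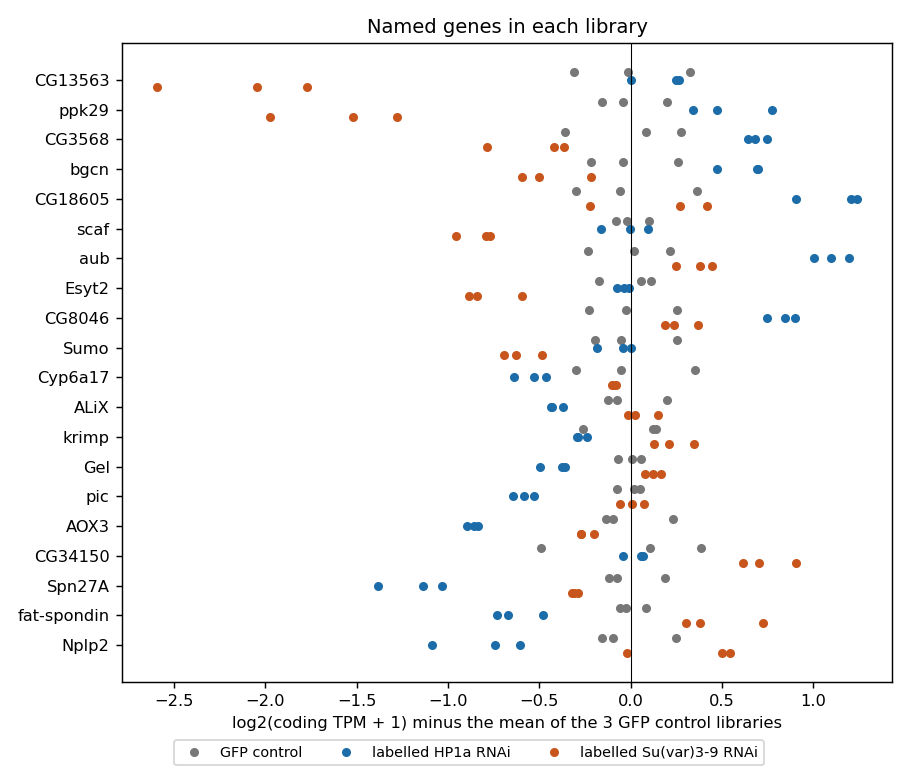
Log2(coding TPM + 1) of named genes in each library, relative to the mean of the 3 GFP control libraries; dots are libraries. ppk29, CG3568, bgcn, Gel and fat-spondin have the labels on opposite sides of the control, aub and CG18605 have the libraries labelled HP1a RNAi above the rest, and Sumo, scaf and Esyt2 have those labelled Su(var)3-9 RNAi below the rest.

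Over all tested genes the median difference was 0.06, with 5040 genes above 0 and 2924 below, so lists are read against that value. In 663 genes (8.32%) the 3 libraries labelled HP1a RNAi all lay above the 3 labelled Su(var)3-9 RNAi, and in 388 genes (4.87%) all lay below. Counts of list members without overlap are read against these shares. No member of any of the 27 gene lists passed the threshold. The targets themselves were kept out of the lists.

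Genes of heterochromatin were the study's own concern. Its list, chosen by position, held 248 identifiers, of which 230 had a CG identifier and 177 were tested. Their median difference was 0.05, with 98 positive and 79 negative, and the lowest adjusted p was that of Gel. Of the 177, 11 were higher without overlap and 12 lower in the libraries labelled HP1a RNAi, against 8.32% and 4.87% of all tested genes. The summed share of coding TPM was 5.13% ± 0.148 (SD, n = 3) under the HP1a label and 5.45% ± 0.224 (SD, n = 3) under the Su(var)3-9 label, which an exact permutation test did not separate (two-sided p = 0.2, adjusted 0.667 over 5 shares; the smallest p that 3 against 3 can give is 0.1).

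Classic heterochromatic genes, named here from the study's text and not by the naming rule, varied more within a label than between labels. lt (light), a gene of vesicle trafficking, had 63.6, 67.3 and 55.1 coding TPM in the libraries labelled HP1a RNAi against 52.7, 61.9 and 87.2 in those labelled Su(var)3-9 RNAi. rl (rolled), the ERK MAP kinase gene, had 247, 318 and 276 against 179, 226 and 347. In both, Su(var)3-9 RNAi replicate 3 was the highest of all 6. Nipped-A, a large subunit of histone acetyltransferase complexes, had 44.4, 90.8 and 45.7 against 23.8, 44.6 and 108, and Nipped-B, the cohesin loader, 27.0, 37.9 and 19.3 against 9.90, 16.9 and 42.0. Their differences of -0.09, 0.21, 0.22 and 0.47 had limma adjusted p from 0.827 to 0.933, and for lt, rl and Nipped-A the sign turned when a single library was left out.

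On the small chromosome 4, much of which is bound by HP1a, 41 of 56 genes were tested. Their median difference was 0.03. No groups were without overlap on the higher side, and 4 genes were lower without overlap in the libraries labelled HP1a RNAi. For all tested genes these shares were 8.32% and 4.87%. yellow-h had 24.8, 31.7 and 27.2 coding TPM against 41.1, 47.2 and 66.4 (difference -0.84, limma adjusted p = 0.348). Rad23, a DNA repair and ubiquitin shuttle gene, had 117, 111 and 119 against 135, 137 and 135 (difference -0.23, limma adjusted p = 0.616), and neither passed.

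No gene on the list of chromatin factors around H3K9 methylation and HP1 passed, the targets being kept out of it. All 29 factors on the list were tested, 25 differences were positive and 4 negative, the median was 0.11, and 1 gene was without overlap. The share without overlap over all tested genes was 13.2%. Of the remaining HP1 paralogs, HP1b had 64.7, 60.3 and 69.4 coding TPM in the libraries labelled HP1a RNAi against 82.9, 71.5 and 63.1, and HP1c had 98.0, 90.5 and 98.5 against 93.6, 101 and 73.4. These ranges overlapped. Among the other H3K9 methyltransferases, egg had 48.0, 47.1 and 40.3 against 40.3, 36.9 and 43.8, and G9a 10.4, 12.6 and 9.26 against 7.94, 9.48 and 13.2. The differences were -0.15 for HP1b, 0.11 for HP1c, 0.16 for egg and 0.08 for G9a, with 95% intervals of -0.43 to 0.13, -0.18 to 0.40, -0.12 to 0.43 and -0.44 to 0.61. wde, the cofactor of egg, had the highest value of the list at 0.49 (95% interval -0.13 to 1.10, limma adjusted p = 0.756), with 18.7, 26.0 and 19.7 against 10.5, 13.8 and 22.4 coding TPM.

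Genes next to the targets in the annotation were measured as well, and none passed. Of the nearest coding genes, 11 tested around the HP1a gene ranged from -0.29 to 0.31 and 9 around Su(var)3-9 from -0.40 to 0.24.

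In small RNA silencing 23 of 24 genes were tested, 18 positive and 5 negative, with a median of 0.16. The piRNA factor krimp, which was lower without overlap (difference -0.50, limma adjusted p = 0.175), was not on this list. Besides aub, blanks, a double-stranded RNA binding protein gene, had 498, 527 and 532 coding TPM in the libraries labelled HP1a RNAi against 389, 431 and 439.8, and 609, 508 and 538 in the control (difference 0.31, limma adjusted p = 0.421). Its groups did not overlap, as in 4 list genes on the higher side and 1 on the lower. The shares over all tested genes were 8.32% and 4.87%.

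Immune genes had the highest median among lists with at least 10 tested members, 0.17, with 27 of 34 positive. Of these genes, 7 were higher without overlap and 1 lower, against 8.32% and 4.87% of all tested genes. The peptidoglycan receptor gene PGRP-LE had 8.48, 11.4 and 7.92 coding TPM against 5.05, 4.08 and 6.74 (difference 0.71), and key, the IKK-gamma subunit of the Imd pathway, 219, 217 and 234 against 194, 181 and 204 (difference 0.21). Def, an antimicrobial peptide gene, was listed at 0 in 7 of the 9 libraries and had 4.91 and 4.59 coding TPM in HP1a RNAi replicates 1 and 3. The adjusted p of these 3 genes lay between 0.622 and 0.636 (limma).

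Hemocyte markers pointed in different directions. SPARC had 884, 857 and 859.6 coding TPM in the libraries labelled HP1a RNAi against 1186, 1292 and 1038, and 919, 931 and 1395 in the control (difference -0.43, limma adjusted p = 0.302). The phagocytosis receptor gene NimC4 had 43.9, 41.5 and 38.7 against 66.0, 46.5 and 53.9 (difference -0.40), and He, hemese, 17.7, 23.7 and 25.6 against 12.5, 14.3 and 13.5 (difference 0.68). Of 21 tested markers, 3 were higher and 3 lower without overlap, against 8.32% and 4.87% of all tested genes. The marker median was 0.06, that of all genes.

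Stress genes and chaperones held no call. Among 22 heat shock genes the small chaperone gene Hsp23 had 134, 132 and 129 coding TPM under the HP1a RNAi label, 268, 161 and 226 under the Su(var)3-9 RNAi label, and 272, 302 and 341 in the control (difference -0.70, limma adjusted p = 0.419). Hsp26 had 87.9, 73.2 and 70.1 against 106, 98.4 and 105, and 203, 220.5 and 179 in the control (difference -0.42). For both genes the order was control, then Su(var)3-9 RNAi, then HP1a RNAi, with the labels of Hsp23 and Hsp26 not overlapping. Hsp70Ba differed by 0.70 in the other direction, also without overlap. The Hsp70 copies are nearly identical, however, and the split between them is uncertain. The list's median was -0.01, with 10 positive and 12 negative. Of its genes, 3 were higher and 2 lower without overlap, against 8.32% and 4.87% of all tested genes.

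In the endoplasmic reticulum 19 of 25 chaperone and unfolded protein response genes were negative, with a median of -0.06. Without overlap, 0 were higher and 4 lower, where all tested genes had 8.32% higher and 4.87% lower. Gp93, the GRP94 chaperone, had 476, 471 and 494 coding TPM against 585, 551 and 574, and 591, 645 and 845 in the control (difference -0.25). The disulphide isomerase genes CaBP1 and ERp60 differed by -0.29 and -0.18. The lowest limma adjusted p in the list was 0.462. Of 24 oxidative stress genes, 3 were lower without overlap and 0 higher. GstD1, a glutathione transferase, had 277, 289 and 272 coding TPM against 367, 352 and 315, and 479, 465 and 526 in the control (difference -0.30, limma adjusted p = 0.462).

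Metabolic and growth genes held individual differences of the same kind. Ldh, lactate dehydrogenase, had 19.6, 25.6 and 20.1 coding TPM under the HP1a RNAi label, 34.5, 44.1 and 33.2 under the Su(var)3-9 RNAi label, and 18.8, 29.1 and 23.6 in the control (difference -0.75, limma adjusted p = 0.348). Thor, the 4E-BP inhibitor of cap-dependent translation, had 12.4, 9.02 and 10.6 against 23.2, 17.4 and 20.7, and 16.4, 10.2 and 6.41 in the control (difference -0.88, limma adjusted p = 0.346). In both the libraries labelled Su(var)3-9 RNAi were the ones above the control. The glycolysis list of 12 had a median of -0.07, with 9 negative, and 0 higher and 2 lower without overlap. The translation initiation list of 35 had a median of 0.11, with 30 positive, and Thor was its lowest member. In that list 3 genes were higher without overlap, bel (0.27) and me31B (0.33) among them, and 1 was lower. All tested genes had 8.32% higher and 4.87% lower without overlap.

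Ribosomal protein genes of the cytosol, the most abundant class, had a median of -0.05, with 63 of 84 negative, 10 lower and 3 higher without overlap. They made up 36.9% ± 0.296 of coding TPM (SD, n = 3) under the HP1a label and 38.4% ± 2.56 (SD, n = 3) under the Su(var)3-9 label, an exact permutation p of 0.4. The per-library shares of the latter ran from 35.9% in replicate 3 to 41.0% in replicate 1, on either side of the former. The mitochondrial ribosomal proteins had a median of 0.07 with 7 of 71 higher and 0 lower without overlap. Over all tested genes 8.32% were higher and 4.87% lower, the background for each such count in this paragraph. Cell division genes had medians of 0.11 (mitosis, 47 genes, 5 higher without overlap) and 0.07 (DNA replication, 44 genes, 4 higher), and among them Klp61F, the kinesin-5 motor, had 138, 147 and 143 coding TPM against 124, 121 and 123 (difference 0.22, limma adjusted p = 0.622).

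**Figure D4:**
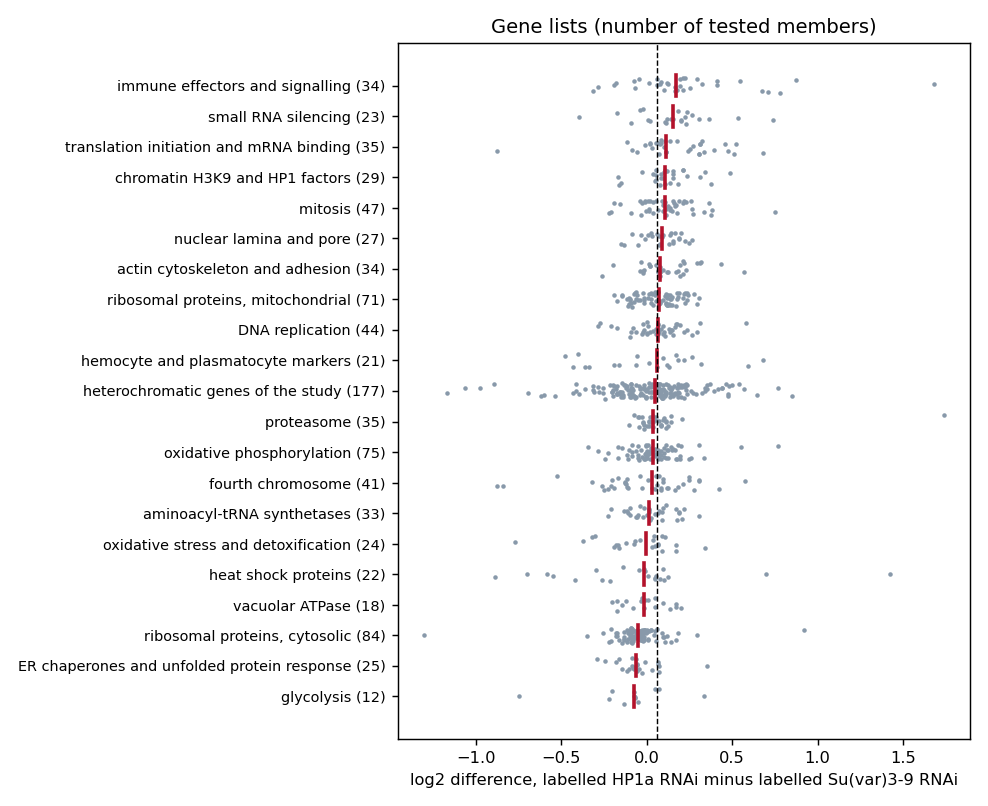
Log2 difference, libraries labelled HP1a RNAi minus libraries labelled Su(var)3-9 RNAi, for each tested member (dots) of the lists with at least 10 tested members; red bars are list medians and the dashed line is the median of all 7964 genes, 0.06. List medians run from -0.07 (glycolysis) to 0.17 (immune), with single members farther out.

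The median difference over all tested genes varied with gene length. When the 7964 genes were divided by length into 5 nearly equal groups, the median difference was 0.02, 0.03, 0.03, 0.08 and 0.14 from the shortest group to the longest. Without Su(var)3-9 RNAi replicate 3 the longest group had 0.24, and without Su(var)3-9 RNAi replicate 1 it had 0.03. The lists did not all follow this order. The chromatin list had a median length of 3678 bases and the cytosolic ribosomal list 682 bases, with medians of 0.11 and -0.05, whereas the hemocyte list of 4732 bases had 0.06. The part of length in the list medians was not tested.

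**Figure D5:**
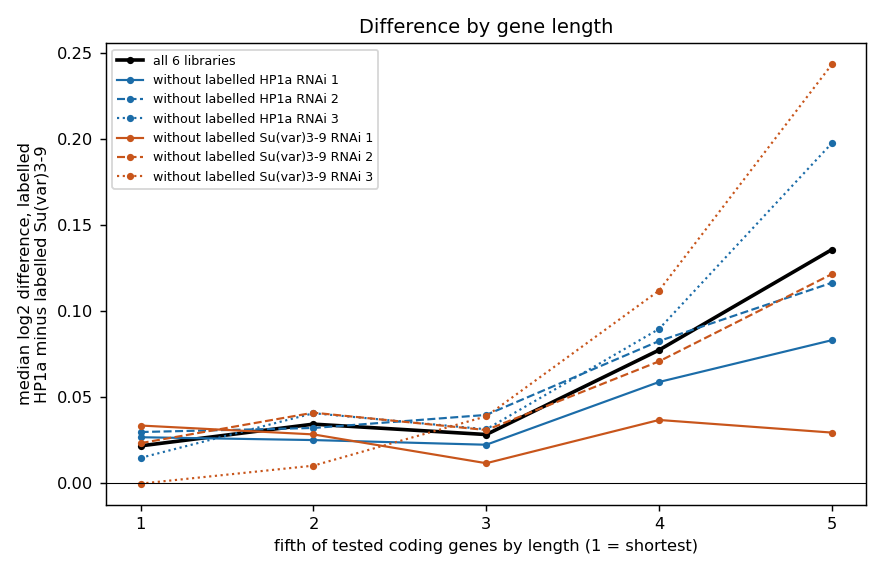
Median log2 difference, libraries labelled HP1a RNAi minus libraries labelled Su(var)3-9 RNAi, in 5 nearly equal groups of tested coding genes by length, with all 6 libraries and with each library left out in turn. The longest group lies at 0.14 with all libraries, at 0.24 without Su(var)3-9 RNAi replicate 3 and at 0.03 without Su(var)3-9 RNAi replicate 1.

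The remaining lists are given by their medians, which were 0.04 for 35 proteasome genes, 0.03 for 75 oxidative phosphorylation genes, 0.01 for 33 aminoacyl-tRNA synthetases, -0.01 for 18 vacuolar ATPase genes, 0.09 for 27 nuclear lamina and pore genes and 0.08 for 34 actin and adhesion genes. Prosalpha1 of the proteasome, at 195, 121 and 74.3 coding TPM against 126, 36.2 and 9.20, had a difference of 1.74 with overlapping groups (limma adjusted p = 0.707). Of 111 replication-dependent histone genes only 6 had values high enough to be tested, with a median of -0.45 and 4 of the 6 negative. Their copies are nearly identical, so that the split between them is uncertain and no level is given for single copies. Lists of markers of other cell types had 2 to 8 tested members each, with medians from -0.10 (neuron and glia) to 0.25 (crystal cell and lamellocyte).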

How the data were processed

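The authors' reads were, by the paper's account, trimmed in Cutadapt 1.11 (minimum length 50, quality cut-off 30), mapped to dm3 in STAR 2.4.5a and quantified in RSEM 1.3.0. The authors deposited TPM per gene and per transcript, 1 column per library, with 2 decimals. Also deposited were tables of the authors' own comparisons with the control (posterior probabilities and fold changes), which were not used.

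TPM of CG identifiers were rescaled to 1000000 per library. Features with a mean of at least 1 over the 6 libraries were tested on log2(coding TPM + 1) with limma 3.58.1 in R 4.3.3 (eBayes with trend, two-sided, no covariates), with calls at an adjusted p (Benjamini-Hochberg) under 0.05. The code was tested on simulated data. Names came from a RefSeq table of a later assembly (12957 identifiers by locus tag, 165 by synonym, 965 kept as identifiers), so no coordinates are given. Named genes were the targets, in each direction the called genes and then those of smallest p, without overlap and with a mean of at least 10, up to 12, and 3 of smallest p per list. lt, rl, Nipped-A, Nipped-B, HP1b, HP1c, egg, G9a and stj fall outside that rule, as do sei and the second CG6476 transcript. The comparison, members and lists were chosen with earlier results of these data known. Exact tests used scipy 1.17.1. Depth is unknown from TPM. The 18 alternatives are listed with their effects in the closing section.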

Additional observations from a re-analysis of the deposited data

Results flagged for a closer look

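The genes below differ between the knockdown labels by the limma contrast between the labels, fitted to the 6 knockdown libraries. The control libraries did not enter that contrast, so it does not place either label against the control. The HP1a gene (CG8409) differed by 2.60 and CG6476, shared by Su(var)3-9 and eIF2gamma, by -3.61, each being high under its own knockdown label. By transcript, CG8409-RB differed by 4.58 and CG8409-RA by -3.23, while CG6476-RA differed by -6.88 and CG6476-RB by 0.16. Reads of transfected dsRNA were not tested as a source. ppk29 differed by 2.12 and CG13563 by 2.31, and these genes overlap in the annotation. l(3)neo43 had a fitted difference of 3.90 and CG11042 of -3.13. Each is listed at 0 in one group, so the fitted value depends on the pseudocount and is no bound: with a pseudocount of 0.1 the values were 7.13 and -6.28.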

How the results depend on the processing

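The targets passed in 18 of 18 alternatives. Against 6 coding genes called, the count was 5 with a pseudocount of 0.1 and with TPM as deposited, 6 with rescaling without the targeted genes, 9 with a mean of at least 10, 3 without a filter, 12 with median-ratio size factors, 14 with quantile normalization, 10 with all 9 libraries in one fit, 3 with eBayes without trend, 32 with array weights and 10 for genes of at least 500 bases, the last chosen after short genes were seen listed at 0. With the replicate number as a block the count was 3. The deviations of same-numbered libraries correlated at -0.085, -0.0262 and -0.207, which gave no sign of pairing by number. With 3 libraries per group such values cannot exclude it. Leaving out 1 library gave 2 to 5 calls: 3 without HP1a RNAi replicate 1 or Su(var)3-9 RNAi replicate 2, and 2 without HP1a RNAi replicate 3. Called transcripts numbered 10 without trend and 3 to 6 in the other alternatives, against 4. The calls, 4 higher and 2 lower, were 6 and 6 with size factors, 7 and 7 with quantile normalization and 2 and 3 with TPM as deposited. The median difference of 0.06 was 0.014, 0.0081 and -0.039 in these.

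Among 107 named genes other than the targets, 1881 values were recomputed: 27 lost and 48 gained the threshold, and 13 changed sign, none of them called. With array weights, apolpp was 0.23, lt 0.012 and HP1c -0.037. G9a was -0.0069 with quantile normalization and -0.028 with TPM as deposited. Leaving out each library in turn, apolpp (-0.52 to 0.29), lt (-0.25 to 0.11), rl (-0.0073 to 0.47), Nipped-A (-0.28 to 0.79), HP1c (-0.024 to 0.20) and G9a (-0.065 to 0.27) took either sign, the ends lying without a Su(var)3-9 RNAi library. The cause was not tested.

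Read against the median of all genes in the same alternative, the medians of the chromatin, immune, mitosis, small RNA and translation lists stayed higher in 18 of 18. Those of the ER, glycolysis and cytosolic ribosomal lists stayed lower. Also always higher were the actin, lamina and pore, muscle, and crystal cell and lamellocyte lists. Always lower were the synthetase, heat shock, oxidative stress and vacuolar ATPase lists. The chromatin list came down to 0.0080 above that median. All alternatives reuse the same libraries, so keeping to a side is no independent support. Heterochromatic (-0.10 to 0.059), chromosome 4 (-0.21 to 0.21) and hemocyte (-0.13 to 0.099) genes lay on either side. TPM carry no depth, so low values have no counting error attached, and 3 libraries per group cannot give an exact permutation p under 0.1.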
